A study of Mus musculus with 6 samples.

Results

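Of the 73710 long non-coding RNA (lncRNA) transcripts listed for cultured mouse spermatogonial stem cells (SSCs), 78 had their level in normal culture above every library made after withdrawal of glial cell-derived neurotrophic factor (GDNF), also when GDNF had been given back. They were chosen by these levels. A transcript had to be shorter than 10000 bp, to have at least 50 reads in at least 2 libraries, and to have a lowest CPM (reads scaled to 1000000 counted reads) in normal culture at least 1.5 times its highest CPM in the other 4 libraries. The 30 transcripts with the most reads and a short list of named transcripts were left out beforehand, and none of those met the rest of the criteria. After the length, read and exclusion criteria 12797 transcripts could have been chosen. Because the 50 reads could come from normal culture alone, 36 of the 78 reached them in no library after withdrawal.

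The cells were Thy1-positive germ cells isolated from C57BL/6 mice 6 to 8 days old and kept on an STO feeder layer for 10 to 20 passages in serum-free medium with 20 ng/ml GDNF, 150 ng/ml of its co-receptor GFRA1 and 1 ng/ml FGF2. Cultures were harvested in normal medium (N), after 18 h without GDNF (0h), or after 18 h without GDNF followed by 8 h with GDNF (8h). Each condition had 2 libraries, numbered 1 and 2, from 2 independently established SSC lines. The groups hold no further control for the time of harvest. Time and GDNF therefore cannot be told apart for 8h against 0h, nor for 8h against N.

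GDNF is secreted by somatic cells of the testis niche and binds GFRA1 on the surface of undifferentiated spermatogonia, which then signals into the cell through the receptor tyrosine kinase RET. This signal maintains self-renewal and survival of SSCs, and cultures lose their clumps of germ cells when it is absent for long. LncRNAs are transcripts longer than most small RNAs that are not translated, and some of them act on the transcription of neighbouring genes, on chromatin or on mRNA stability. Known lncRNAs carry a NONCODE number starting with n, and predicted lncRNAs carry a Cufflinks transcript number starting with TCONS. The functions of the 78 transcripts are not given here, because the files pair their numbers with no gene symbol, position or sequence.

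The libraries held a mean of 8026462 reads counted on lncRNAs in N, 8317425 in 0h and 7846134 in 8h, with the deepest 1.11 times the shallowest, so that 3 reads, the least taken as a detectable level, correspond to 0.353 to 0.390 CPM. The files name no protein-coding genes, so markers of spermatogonia and of STO cells could not be looked up. Germ cells were dislodged by pipetting, a step meant to leave the feeder layer behind, and the part of any remaining feeder RNA was not tested. In bulk RNA, fewer cells of a type and less RNA per cell cannot be told apart.

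Against normal culture most of the 78 lncRNAs were reduced rather than lost. Together they took 0.4996% and 0.513% of the reads in the N libraries, then 0.245% and 0.230% in 0h and 0.251% and 0.244% in 8h. The mean CPM in 0h was a median of 43.6% of that in N (range 2.57 to 61.6%), and in 8h a median of 43.3% (range 7.39 to 59.6%). The summed share, which the most abundant lncRNAs weigh on most, was at nearly the same level in 0h and in 8h. That both lay below N is fixed by the selection. In 0h 52 of the lncRNAs were below 50% of N, in 8h 57 were, and 42 were in both. Only 1 lncRNA had 3 or fewer reads in any library.

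These differences from N are what the lncRNAs were chosen for and carry no test of their own. The median log2 fold change was -1.18 for 0h against N (range -5.18 to -0.68) and -1.28 for 8h against N (range -3.81 to -0.82), where the medians over all 39310 transcripts tested were -0.01 and 0.01. In edgeR's quasi-likelihood fit, 28 of the 78 were lower in 0h than in N at a false discovery rate (FDR) below 0.05, against 0.315% of all transcripts tested. In the same fit 16 were lower in 8h than in N, against 0.17% of all transcripts tested. Both comparisons share the N libraries, and nothing is read from these counts beyond the choice of the lncRNAs.

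**Figure D1:**
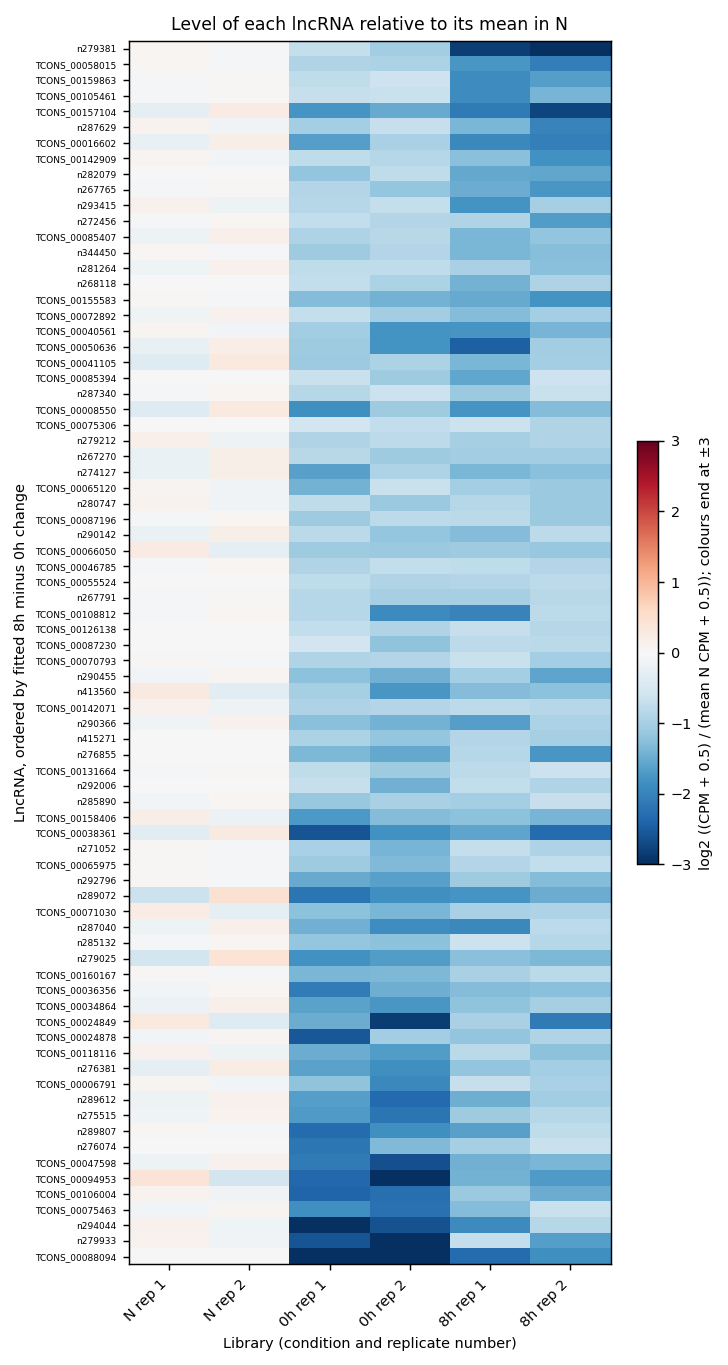
Level of each of the 78 lncRNAs (rows, ordered by the fitted change from 0h to 8h) in each of the 6 libraries (columns), as the log2 ratio of its CPM to its mean CPM in N with 0.5 CPM added to both. Blue is below the mean of N and red above it: the 0h and 8h columns are blue in every row, which the selection fixes, and the rows at the top are darkest in 8h while those at the bottom are darkest in 0h.

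The threshold cut through a continuous range. The ratio of the lowest N level to the highest other level had a median of 1.66, and 25 lncRNAs lay below 1.6. The last to be included were TCONS_00041105 (1.50), n279933 (1.51) and TCONS_00072892 (1.51). The transcripts just outside were n286285, n286725 and TCONS_00056614, each at 1.50 when rounded and below the threshold. The chosen set and its nearest neighbours therefore differed very little at the edge.

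Level in normal culture spanned more than the fold change did. RPKM (CPM per kilobase of transcript), which can be compared between transcripts, was a median of 7.74 in N (range 1.80 to 631) and 8.64 over the transcripts that could have been chosen. Of the 78, 17 were at 20 RPKM or more, 43 between 5 and 20 RPKM, and 18 below 5 RPKM. The 8 most abundant were n281264, TCONS_00055524, TCONS_00065975, n344450, TCONS_00046785, TCONS_00070793, n415271 and n292796.

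The known lncRNA n281264 (1023 bp) was the most abundant, at 631 ± 78.9 RPKM in N (SD, n = 2). Its level was 589 and 703 CPM in the N libraries, then 379 and 383 in 0h and 328 and 272 in 8h. Both libraries of each condition lay below both of the one before. Its rank by RPKM among the transcripts that could have been chosen went from 39 in N to 73 in 0h and 111 in 8h.

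The predicted lncRNA TCONS_00055524 (2742 bp) followed at 219 ± 3.03 RPKM in N. It was at 607 and 595 CPM in N, then 356 and 321 in 0h and 328 and 349 in 8h, so that the 0h and 8h libraries overlapped. TCONS_00065975 (3494 bp, predicted) was at 748 and 702 CPM in N, then 345 and 290 in 0h and 394 and 433 in 8h. Its 8h libraries lay above the 0h libraries but at 57.0% of N.

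The known lncRNA n344450 (2219 bp, 129 ± 7.46 RPKM in N) had 298 and 274 CPM in N, then 136 and 155 in 0h and 111 and 117 in 8h, and stepped down in the same order as n281264. TCONS_00046785 (3029 bp, 125 ± 6.58 RPKM) had 366 and 394 CPM in N, then 203 and 228 in 0h and 223 and 207 in 8h. TCONS_00070793, the shortest at 290 bp (104 ± 2.96 RPKM), had 30.6 and 29.4 CPM in N, then 15.9 and 16 in 0h and 18.6 and 14.6 in 8h. In both of these predicted lncRNAs the 0h and 8h libraries overlapped.

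The known lncRNA n415271 (4714 bp, 77.6 ± 1.14 RPKM in N) was at 370 and 362 CPM in N, then 188 and 163 in 0h and 197 and 182 in 8h. Its N libraries were close together and its 0h and 8h libraries overlapped. The known lncRNA n292796 (1200 bp, 71.3 ± 2.31 RPKM) was at 87.5 and 83.6 CPM in N, then 29.7 and 27.5 in 0h and 40.3 and 34.6 in 8h. It combined a high level with a ratio above 2, and its 8h libraries lay above its 0h libraries without reaching 50% of N.

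The lncRNAs with the highest ratio of the lowest N library to the highest other library were mostly predicted. A ratio of at least 2 was found in 10 lncRNAs, of which 9 were predicted and 1, n292796, was known. Predicted lncRNAs were 53.8% of the whole set and 40.1% of the transcripts that could have been chosen. Of the 9, only TCONS_00155583 and TCONS_00047598 reached 50 reads in any 0h or 8h library. High ratios thus went mostly with few reads, and nothing is read from them about origin. The 8 highest ratios belonged to TCONS_00088094, TCONS_00038361, TCONS_00157104, TCONS_00155583, TCONS_00047598, TCONS_00036356, TCONS_00158406 and TCONS_00106004.

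TCONS_00088094 (1942 bp) had the highest ratio, 4.40. It was covered by 56 and 59 reads in N, 3 and 0 reads in 0h, and 8 and 13 reads in 8h. It was at 2.57% of N in 0h, the lowest share of the 78 there, and at 18.6% of N in 8h, on very few reads in either.

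TCONS_00155583 (4210 bp) was the only one of these 8 with a high read number, at 1281 and 1292 reads in N, then 526 and 506 in 0h and 432 and 366 in 8h. Its 8h libraries lay below its 0h libraries, at 31.8% of N. The predicted TCONS_00157104 also lay lower in 8h than in 0h, with 61 and 94 reads in N, then 20 and 26 in 0h and 14 and 8 in 8h.

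In TCONS_00106004 the order of 0h and 8h was the opposite, with 78 and 70 reads in N, then 11 and 13 in 0h and 31 and 24 in 8h. TCONS_00047598 had 121 and 156 reads in N, then 29 and 20 in 0h and 46 and 51 in 8h. TCONS_00036356 had 98 and 114 reads in N, then 22 and 38 in 0h and 39 and 42 in 8h. These had both 8h libraries above both 0h libraries, at 35.9 to 39.1% of N. TCONS_00158406 (68 and 55, 16 and 24, then 23 and 21 reads) and TCONS_00038361 (61 and 100, 10 and 21, then 23 and 13 reads) overlapped between 0h and 8h.

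**Figure D2:**
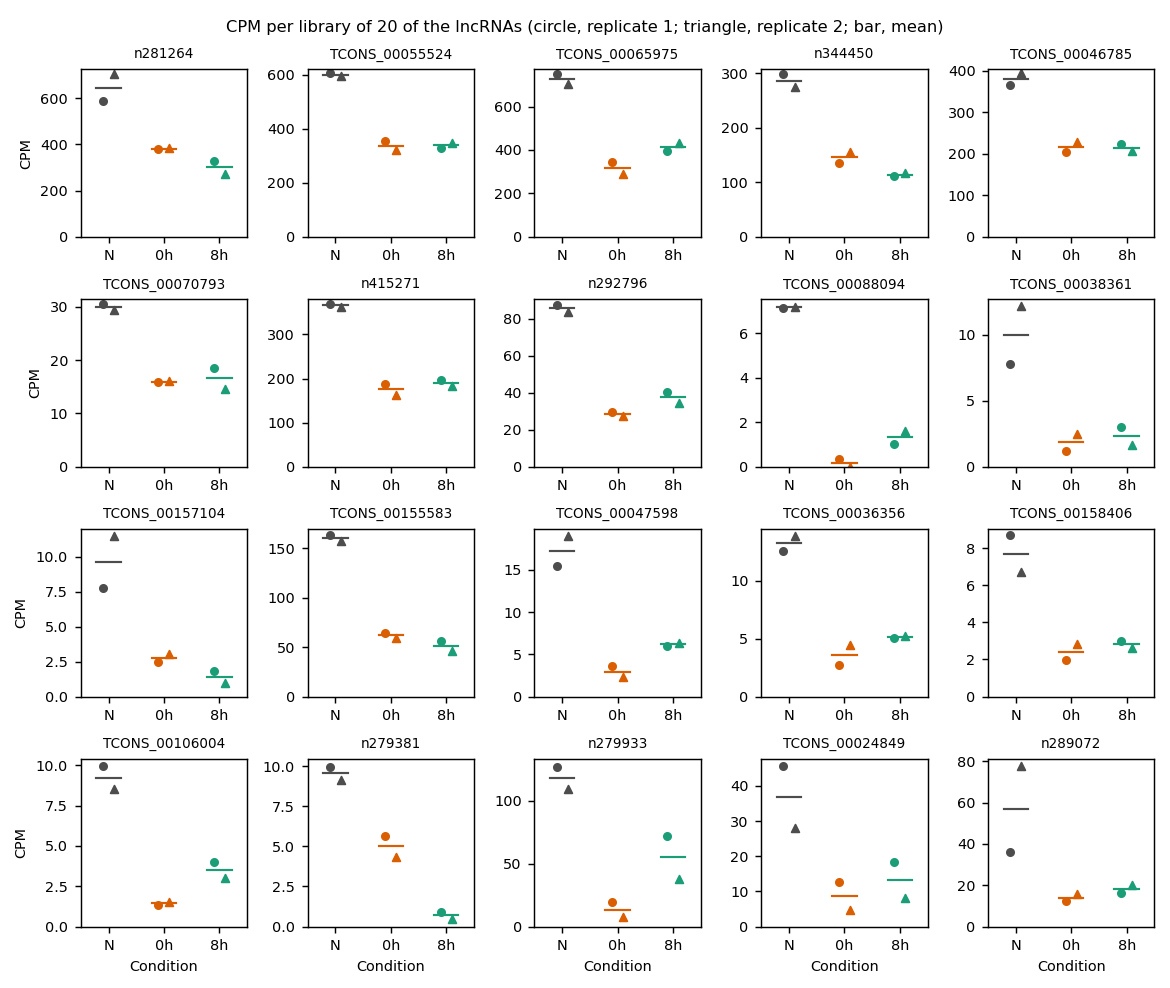
CPM of 20 of the lncRNAs in each library by condition, on linear axes that start at 0: the 8 most abundant in N, the 8 with the highest ratio to N, both lncRNAs that passed the test of 8h against 0h (n279381 and n279933), and 2 of those that differed between replicate numbers (TCONS_00024849 and n289072). Circles are replicate 1, triangles replicate 2 and bars the mean of n = 2; n279381 is lowest in 8h, and n279933 is lowest in 0h.

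GDNF refreshment, 8h against 0h, is the comparison whose sign the choice did not set, although a lncRNA that regained the N level could not have been chosen. Time of harvest differs between 0h and 8h as well. The known lncRNA n279381 was lower in 8h than in 0h, and the known lncRNA n279933 was higher. No other of the 78 passed the test. At an FDR below 0.05 in one direction, 0.521% of all transcripts tested were higher and 0.45% lower in 8h. The 2 calls are 2.56% of the 78, against 0.972% of all 39310 transcripts tested and 2.47% of those that could have been chosen. The share is thus near that of the transcripts that could have been chosen, although 36 of the 78 reached 50 reads in no 0h or 8h library, so their depth in this comparison was not that of the transcripts they are set beside. At an unadjusted p below 0.05 there were 21 lncRNAs, 26.9% of the 78, against 13.7% of all transcripts tested and 21.4% of those that could have been chosen.

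The known lncRNA n279381 (1516 bp) had 78 and 75 reads in N, then 46 and 37 in 0h and 7 and 4 in 8h. It was at 52.4% of N after withdrawal and at 7.39% of N after refreshment, and both 8h libraries lay far below both 0h libraries. The log2 fold change for 8h against 0h was -2.90 (SE 0.48, FDR 0.0154, edgeR's quasi-likelihood test). The call did not hold when 0h replicate 1 (FDR 0.0869), 0h replicate 2 (FDR 0.0729) or 8h replicate 2 (FDR 0.126) was left out, or when the fit held 0h and 8h only (FDR 0.0748), and over all alternatives the FDR ranged from 0.000299 to 0.126.

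The known lncRNA n279933 (3685 bp) went the other way. It had 994 and 897 reads in N, then 157 and 63 in 0h and 555 and 300 in 8h. Its level was 11.3% of N in 0h and 46.5% of N in 8h, so that it was partly restored and entered the set only just inside the threshold. The log2 fold change for 8h against 0h was 1.93 (SE 0.38, FDR 0.0348, edgeR's quasi-likelihood test). In DESeq2's Wald test it did not pass (FDR 0.0785), nor without N replicate 1 (FDR 0.0704), N replicate 2 (FDR 0.0723), 0h replicate 2 (FDR 0.176) or 8h replicate 1 (FDR 0.131), nor in the fit of 0h and 8h only (FDR 0.0952). Over all alternatives its FDR ranged from 1.74e-07 to 0.176, and its log2 fold change was 2.80 without 0h replicate 1.

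Between 0h and 8h the set as a whole had no common direction. The fitted log2 fold changes had a median of -0.04 (range -2.90 to 2.69), with 34 above 0 and 44 below, and the median over the transcripts that could have been chosen was -0.06. With library totals in place of TMM factors in the same fit the split turned, to 44 above 0 (56.4%, against 52.8% of the transcripts that could have been chosen) and 34 below, with a median of 0.06. The size of the change was a median of 0.35, against 0.31, and reached 1 in 12 of the 78 (15.4%), against 8.36%. These sizes were not compared at like depth, since 36 of the 78 reached 50 reads in no 0h or 8h library. The standard errors ranged from 0.15 to 0.87, and for 38 lncRNAs the change and 2 standard errors on either side stayed within -1 and 1. For the other 40 that range reached beyond -1 or 1, and for n279381 and n279933 it lay wholly beyond.

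By CPM both 8h libraries lay above both 0h libraries in 25 of the 78 lncRNAs (32.1%, against 26.8% of all transcripts tested and 27.2% of those that could have been chosen), and below them in 17 (21.8%, against 18.5% and 22.7%). The remaining 36 overlapped. With TMM scaling there were 22 above and 22 below, and the shares over the other transcripts were not computed with that scaling. By CPM 12 known lncRNAs were among those above and 9 among those below. These were not set beside the other known transcripts, so nothing is read from them.

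**Figure D3:**
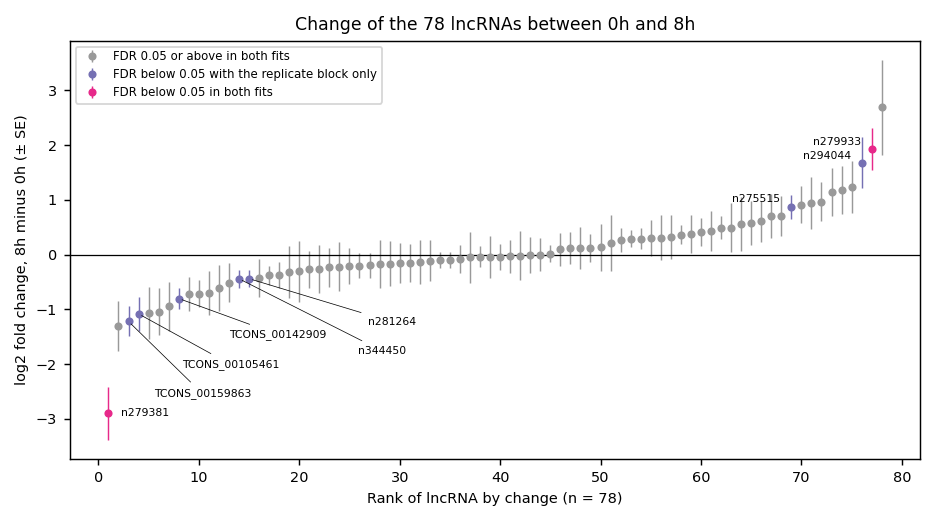
Fitted log2 fold change of 8h minus 0h (y axis, with standard error bars) for the 78 lncRNAs ranked by it (x axis), from the edgeR fit without the replicate block. Most values lie near 0, n279381 stands at -2.90 and n279933 at 1.93, and the highest value (TCONS_00088094, 2.69) has the widest bar and did not pass the test.

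The replicate number was also used as a block, which takes the difference between the replicate numbers out of the spread. The numbers were taken to stand for the 2 SSC lines, which the labels do not state. With the block 9 of the 78 (11.5%) passed the test of 8h against 0h. That is against 5.25% of all transcripts tested and 12.6% of those that could have been chosen. Of the 9, 3 were higher in 8h, against 2.41% of all transcripts tested and 5.26% of those that could have been chosen, and 6 were lower, against 2.84% and 7.35%. These shares of the 78, 3.85% and 7.69%, lie near those of the transcripts that could have been chosen. The FDR became 0.000803 for n279381 and 1.2e-05 for n279933. The further 7 lncRNAs are described because the block added them, so they were picked after their values were seen. Over the 78 lncRNAs the differences between replicates 1 and 2 in 0h and in 8h correlated with r = 0.0312 only, against 0.223 over all transcripts tested. Of the further 7 lncRNAs n275515 and n294044 were higher in 8h, and TCONS_00105461, TCONS_00142909, TCONS_00159863, n281264 and n344450 were lower.

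The known lncRNA n275515 (1755 bp) had 892 and 1078 reads in N, then 305 and 225 in 0h and 448 and 536 in 8h (log2 fold change 0.88, SE 0.18, FDR 0.00527 with the block and 0.0823 without). The known lncRNA n294044 (2385 bp) had 121 and 106 reads in N, then 11 and 16 in 0h and 26 and 61 in 8h (1.65, SE 0.43, FDR 0.0274 with the block and 0.119 without). The value of n294044 rested on 8h replicate 2: in the fit without the block, leaving it out took the log2 fold change from 1.68 to 0.94 (FDR 0.562). Both came from far below N, at 26.1% and 11.4% in 0h, and were at 51.1% and 38.8% in 8h.

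The predicted TCONS_00142909, the longest of the set at 9231 bp, had 1311 and 1237 reads in N, then 763 and 741 in 0h and 510 and 359 in 8h (log2 fold change -0.82, SE 0.14, FDR 0.00153 with the block and 0.0797 without). TCONS_00159863 (2519 bp) had 176 and 196 reads in N, then 109 and 126 in 0h and 45 and 56 in 8h (-1.22, SE 0.25, FDR 0.00498 and 0.0575). TCONS_00105461 (1354 bp) had 127 and 140 reads in N, then 82 and 87 in 0h and 32 and 48 in 8h (-1.09, SE 0.29, FDR 0.0293 and 0.132). These predicted lncRNAs were at 56.9 to 61.1% of N in 0h, among the least reduced of the 78, and at 27.7 to 35.0% of N in 8h.

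For n281264 and n344450, whose levels are given above, the log2 fold change with the block was -0.44 for each (FDR 0.0321 and 0.0454), and the FDR without the block was 0.207 and 0.239.

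The criteria used the lowest N and the highest other library, so a wide difference between replicates in any condition made a transcript harder to choose. Replicate 2 differed from replicate 1 over the 3 conditions in 3 of the 78 lncRNAs (3.85%), against 2.48% of all transcripts tested and 6.22% of those that could have been chosen. TCONS_00024849 and n279933 were lower in replicate 2, as were 1.14% of all transcripts tested, and n289072 was higher, as were 1.34%.

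The predicted TCONS_00024849 (6189 bp) had 357 and 231 reads in N, then 104 and 40 in 0h and 142 and 65 in 8h, with replicate 1 higher in each condition (log2 fold change of replicate 2 against 1 -1.03, SE 0.19, FDR 0.00356). For n279933 replicate 1 was likewise the higher in each condition (-0.74, SE 0.16, FDR 0.0174). That call did not hold in DESeq2 (FDR 0.17) or without 0h replicate 1 (FDR 0.102) or 0h replicate 2 (FDR 0.125). The known lncRNA n289072 (3029 bp) had 283 and 640 reads in N, then 99 and 133 in 0h and 125 and 161 in 8h (0.65, SE 0.17, FDR 0.0492). Its difference was widest in N, and it was lost in DESeq2 (FDR 0.0803) and without N replicate 1 (FDR 0.511) or N replicate 2 (FDR 0.53).

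The N libraries of n289072 differed 2.15-fold, the most in the set, followed by n279025 (1.97-fold) and TCONS_00094953 (1.95-fold). In 8 of the 78 the N libraries differed by more than 1.5-fold. The median was 1.13-fold, against 1.21-fold over the transcripts that could have been chosen, in a set whose choice used the lower N library.

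Predicted lncRNAs made up 42 of the 78 (53.8%) and known lncRNAs 36 (46.2%), where 40.1% of the transcripts that could have been chosen were predicted. Origin was not compared at like depth, since 36 of the 78, known or predicted, reached 50 reads in no 0h or 8h library. The larger share of predicted lncRNAs is therefore not read as a trait of the set. Predicted lncRNAs were at a median of 38.8% of N in 0h and 43.1% in 8h, and known lncRNAs at 45.2% and 43.3%. The transcripts had a median length of 2286.5 bp (range 290 to 9231 bp), against 2114 bp. No pair of predicted lncRNAs had transcript numbers at most 5 apart, the closest being TCONS_00085394 and TCONS_00085407, and no pair of the 78 had read numbers within 10% of each other in every library. Without positions, overlap between the transcripts was not tested.

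The share of a transcript covered by reads, as deposited, had a median of 83.5% in N (range 15.45 to 99.4%), against 77.9% over the transcripts that could have been chosen. The choice asked for reads in N itself, which the other transcripts could lack, so these medians were not compared at like depth in N. Among the 40 lncRNAs with at least 100 reads in both N libraries, 17 (42.5%) were covered over less than 80% of their length, against 39.0%. Chosen after its values were seen, n290455 (3459 bp) had 150 and 176 reads in N on 11.8 and 19.1% of its length, so that its count stands for a short stretch. The abundant n281264 was covered over 52.3% of its length in N despite 4609 and 5778 reads, and its covered share lay between 51.6 and 54.6% in all 6 libraries. For n279933 the covered share was 62.1 and 62.6% in N, then 43.8 and 26.9% in 0h and 52.4 and 60.5% in 8h.

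**Figure D4:**
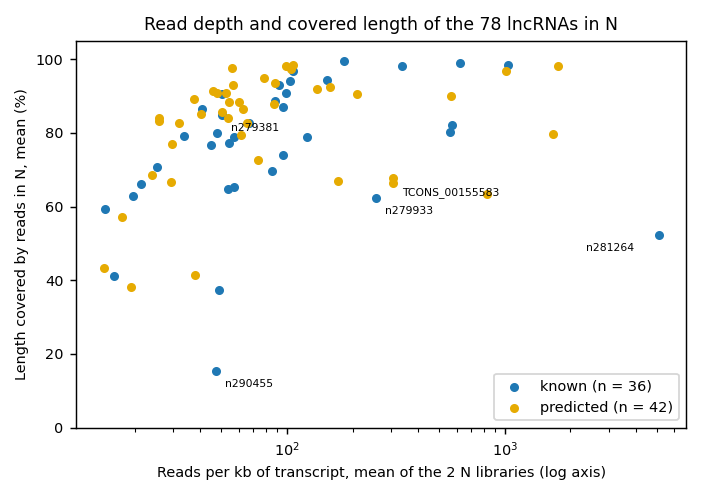
Covered share of each lncRNA in N (y axis, mean of 2 libraries) against its reads per kilobase in N (x axis, log scale), for the 36 known (blue) and 42 predicted (yellow) lncRNAs. Most transcripts above 100 reads per kilobase lie over 80%, while n281264 lies at 52.3% and n290455 at the lowest share.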

How the data were processed

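RNA of 6 SSC libraries was depleted of rRNA, primed with random hexamers and sequenced on an Illumina HiSeq instrument. The authors deposited, per library and lncRNA, the count of uniquely mapped reads, the transcript length, the share of its length covered (percent) and an RPKM scaled to the total of the count column. Aligner, counting tool and genome build are not given in the sources used here, and whether counting used strand is likewise not given, so sense and antisense reads cannot be told apart. An unlisted transcript was given 0 reads. The 78 lncRNAs, and the lists and tests applied to them, were chosen with earlier results of these data known.

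Counts were tested with edgeR 4.0.16 in R 4.3.3 (TMM, quasi-likelihood test, Benjamini-Hochberg FDR over all 39310 transcripts with at least 10 reads in at least 2 libraries, threshold 0.05) in a single fit of all 6 libraries. All 78 passed this filter. The contrast 8h minus 0h had the condition as its only term, and replicate 2 minus replicate 1 had condition and replicate number. Each standard error is the size of the log2 fold change over the root of its F statistic. Exact permutation of 2 libraries against 2 cannot give a p below 0.333, so calls rest on the model across transcripts. Counts were simulated for the 39310 transcripts with the same dispersion for each, and changes were placed only in transcripts with a mean of at least 50 reads. The test of 8h against 0h recovered 2% of log2 changes of 1 and 56% of log2 changes of 2, and the test of replicate numbers 9% and 90%. The same dispersion served both tests, although the biological coefficient of variation was 23.6% in the fit with replicate number and 31.5% without. Recovery by the test of replicate numbers was thus not simulated at the spread of its own fit. Recovery at lower depth was not simulated, and 36 of the 78 reached 50 reads in no 0h or 8h library.

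Replicate numbers come from the labels, and the study sequenced 2 lines in all 3 conditions. Differences between replicates 1 and 2 correlated between conditions over all transcripts tested with r = 0.183 (N and 0h), 0.197 (N and 8h) and 0.223 (0h and 8h), and over the 78 with r = 0.29, 0.243 and 0.0312, a description across transcripts, and the numbers were taken to pair the libraries. The biological coefficient of variation was 31.5%, and 23.6% with the block.

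Named lncRNAs were the 8 most abundant by RPKM in N, the 8 with the highest ratio, those called for 8h against 0h, the 3 most changed between replicate numbers in each direction among those called, and 3 on either side of the threshold. Transcripts picked otherwise are marked as such. Alternatives were DESeq2 1.42.0, DESeq2 size factors, total counts, other filters, the replicate block, a fit of 0h and 8h only, and leaving out each library. Tables and figures were made with Python 3.11.15, pandas 2.3.3 and matplotlib 3.10.9. No sequences were used here.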

Additional observations from a re-analysis of the deposited data

Results flagged for a closer look

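In 3 of the 78 lncRNAs (3.85%) the 2 replicate numbers moved in opposite directions between 0h and 8h by at least 1.5-fold each. Of the 12797 transcripts that could have been chosen, 98 (0.766%) did so. These shares were not compared at like depth, since 36 of the 78 reached 50 reads in no 0h or 8h library. The difference between the replicates was not tested. The log2 ratio of 8h over 0h CPM was 1.28 in replicate 1 and -0.61 in replicate 2 for TCONS_00038361, -1.70 and 0.87 for TCONS_00050636, and -1.25 and 1.24 for TCONS_00108812. TCONS_00050636 had 57 and 81 reads in N, then 31 and 18 in 0h and 9 and 31 in 8h. TCONS_00108812 had 116 and 134 reads in N, then 68 and 32 in 0h and 27 and 71 in 8h. In all 3 the 0h and 8h levels overlapped, and most of these values rest on few reads.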

How the results depend on the processing

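The number of lncRNAs that passed for 8h against 0h, 2 in all with 1 higher and 1 lower, moved with the processing. DESeq2 called 4 (3 lower), edgeR without a filter 6 (3 higher, 3 lower), and the replicate block 9 (3 higher, 6 lower). Total counts called 2 higher, and a minimum of 50 reads in 2 libraries 2 lower. Over all transcripts tested the share called also moved, from 0.972% without the replicate block to 5.25% with it. For the other settings that share is not given here. These shifts are therefore not read as specific to the chosen lncRNAs. With only 0h and 8h in the edgeR fit 0 passed (16 at an unadjusted p below 0.05), and leaving out 1 library, where the lone library is assumed to vary like the other conditions, gave 0 to 1 in all, 0 to 1 higher and 0 to 1 lower, with 0 without 0h replicate 2 (14 at an unadjusted p below 0.05). Of the 3 called between replicate numbers DESeq2 called 1, TCONS_00024849.

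The median of 8h against N, -1.28, had no test. Its alternatives, chosen after seeing the data, gave -1.276 (DESeq2), -1.274 (DESeq2 size factors), -1.204 (total counts), -1.279 (no filter), -1.225 (50 reads in 2 libraries) and -1.374 to -1.145 with 1 library left out. The median of 0h against N moved by less than the spread between replicates in every alternative run.

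A ratio of 2 left 10 lncRNAs, a minimum of 100 reads 40, and a minimum of 20 reads gave 254. With 1 library left out the criteria gave 114 to 168. Without N replicate 1 there were 168, and without N replicate 2 there were 141, and only 42 of the 78 were among either, because the other 36 reached 50 reads in N alone. With TMM or DESeq2 factors there were 86, of which 75 were shared. No called value changed sign. Of log2 changes between 0h and 8h simulated in transcripts with a mean of at least 50 reads, 2% of those of 1 and 56% of those of 2 were recovered.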
